A study of Rattus norvegicus with 8 samples.

Results

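The subunits of the transcription factor NF-κB and the inhibitors that restrain it were examined in osteoblast-like cells after Er:YAG laser irradiation. The members were 10 genes, the subunits *Nfkb1*, *Nfkb2*, *Rel*, *Rela* and *Relb* and the inhibitors *Nfkbia*, *Nfkbib*, *Nfkbie*, *Nfkbiz* and *Tnfaip3*. These genes were chosen by name and not by their values, although earlier results of these data were known. They were read by 15 of the 45598 different rat probes on the array, which carry 34912 gene names. The donors were Wistar rats aged 3 to 5 days, and the cells were released from the skull cap and grown in dishes. The medium named in the labels holds ascorbic acid, β-glycerophosphate and dexamethasone for all samples. In each group 4 cultures were measured, non-irradiated cells and cells that had received 3.3 J/cm2 over 60 s, all taken 6 h later, and both groups carry the replicate numbers 1 to 4. The cultures were primary cells from enzymatic digestion and were not sorted, so they can hold other cell types of the calvaria. Each culture was hybridized to 1 one-color array, and all 8 arrays lay on 1 slide and were read in 1 scan, with non-irradiated arrays in columns 1 and 3 and irradiated arrays in columns 2 and 4 of the slide, so column and irradiation cannot be told apart.

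NF-κB proteins bind DNA in pairs and are kept out of the nucleus by inhibitors of the IκB family. Stimuli such as tumor necrosis factor or interleukin-1 activate a kinase that marks IκB for destruction, which frees the pairs to enter the nucleus. NF-κB then raises several of its own inhibitors, among them *Nfkbia*, *Nfkbie*, *Nfkbiz* and *Tnfaip3*, and this feedback ends the response. A slower branch runs through the kinase encoded by *Map3k14* to the *Nfkb2* and *Relb* proteins. In osteoblasts, NF-κB activity is known to restrain bone formation.

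Matches to the κB consensus, the sequence pattern that NF-κB recognizes, were sought in the members' own promoters. RefSeq promoters of the rat build GRCr8, from 250 bases before to 50 bases after each gene start, were matched for 9 of the 10 members, with *Relb* unmatched. The κB consensus, searched on both strands, was present in 7 of the 9, against 7.51% of the 33469 promoters of the table. The looser form GGGNNNNNCC, which contains every κB consensus match, was present in all 9 and in 47.3% of all promoters. The windows below are shown because they separate the members that carry a κB match from *Rela* and *Nfkbib*, which had none in this window. Each holds 30 bases on the strand of the gene, with the match in capitals.
*Nfkb1*, chr2:226805440-226805469, minus strand: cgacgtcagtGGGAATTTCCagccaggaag
*Nfkb2*, chr1:255108344-255108373, plus strand: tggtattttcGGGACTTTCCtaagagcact
*Rel*, chr14:101922000-101922029, minus strand: gtaggcagcGGGAAATCCCCccccgttccg
*Nfkbia*, chr6:78597084-78597113, minus strand: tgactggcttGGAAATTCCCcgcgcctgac
*Nfkbie*, chr9:22948017-22948046, minus strand: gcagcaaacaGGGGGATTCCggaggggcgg
*Nfkbiz*, chr11:58251698-58251727, plus strand: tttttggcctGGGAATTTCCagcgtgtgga
*Tnfaip3*, chr1:15544021-15544050, minus strand: gactGGAAAGTCCCtcGGAAATCCCCctgt
In *Nfkbia* and *Tnfaip3* the capitals match on the other strand. The match began 20 bases before the gene start in *Nfkb2* and 13 bases before it in *Nfkbiz*, and at base 4 after it in *Nfkb1*. *Tnfaip3* carried a pair of matches in this window, separated by 2 bases, and a further one at -170. *Rel* also had a further one, at -219. A match describes the sequence and does not show that the site is bound.

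The cultures carried the markers of osteoblasts, since all 7 markers listed (*Runx2*, *Sp7*, *Alpl*, *Bglap*, *Col1a1*, *Ibsp* and *Spp1*) were well above background throughout at least 1 group of 4 arrays. The same held for 3 of 6 macrophage and leukocyte markers, 4 of 4 endothelial markers, 3 of 5 muscle markers and 3 of 3 cartilage markers. Between 26543 and 30490 probes per array were well above background, and 0 spots were saturated. Over 26399 probes tested with limma, 0 (0%) had an adjusted p below 0.1, and 676 (2.56%) had an unadjusted p below 0.05. Non-irradiated replicate 1 and irradiated replicate 2 stood apart from their groups and resembled each other, with a correlation of their deviations from the group means of 0.44 over 26250 probes, against 0.055 between both arrays of replicate 2. Non-irradiated replicate 1 was still closer to irradiated replicate 1, at 0.61. Results are therefore also given without replicates 1 and 2. Both groups of replicates 1 and 2 occupied slide row 1, and both groups of replicates 3 and 4 occupied slide row 2. A contrast of replicates 1 and 2 with replicates 3 and 4 is thus also a contrast of slide rows, whose part was not tested. In whole cultures, fewer cells of a type and less RNA per cell cannot be told apart.

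None of the NF-κB members passed the test after irradiation. Of the 15 probes, 13 could be tested, covering 9 genes, and 0 of 13 had a limma adjusted p below 0.1, where 0% of all probes did. At an unadjusted p below 0.05, 1 of 13 was higher, against 1.47% of all probes, and 0 were lower, against 1.09%. For 3 of the 13, which are named as dim where they are described, the filter was passed through the irradiated arrays alone. Of the 13, 1 was higher in 4 of 4 pairs, against 3.82% of all probes, and 0 were lower in 4 of 4, against 3.64%. A log2 change of 1 or more in either direction was found in 0 of 13, and in 0.072% of all probes. Non-irradiated and irradiated arrays overlapped for all 13, while 0.553% of all probes had groups that did not overlap. With 1 probe per gene, the one with the highest mean signal, log2 changes lay between -0.075 in *Nfkbia* and 0.18 in *Relb*. The 95% intervals of the 9 genes from the limma fit lay between 0.674-fold and 1.65-fold. The p-values measure the spread of the differences within replicate numbers, with the variance moderated by limma over all probes. The 4 arrays per group limit the precision.

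**Figure D1:**
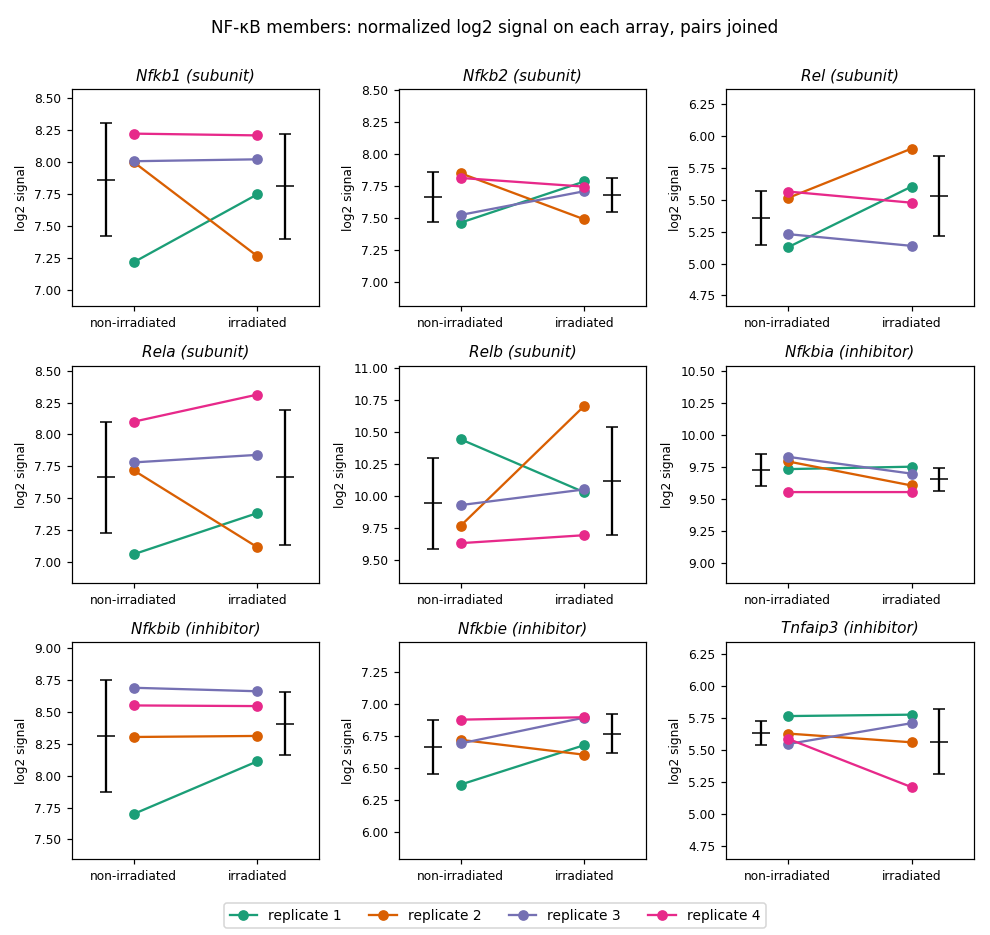
Normalized log2 signal of the 9 members with a tested probe, 1 panel per gene, on non-irradiated (left) and irradiated (right) arrays; points of a replicate number are joined, black bars are the mean ± SD of 4 arrays, and every panel spans the same number of log2 units. In *Nfkb1* and *Rela* the lines of replicates 1 and 2 cross, while replicates 3 and 4 stay nearly level in *Nfkb1* and differ by 0.06 and 0.21 in *Rela*.

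*Nfkb1* encodes a precursor that is cut to a DNA-binding subunit, and *Rela* encodes the main transactivating partner of that subunit. The log2 signal of *Nfkb1* (probe A_44_P494130, chromosome 2 of rn4 from 233091704 to 233091763) was 7.21, 8.0, 8.01 and 8.22 on the non-irradiated arrays of replicates 1 to 4 and 7.75, 7.26, 8.02 and 8.21 on the irradiated arrays. Non-irradiated replicate 1 and irradiated replicate 2 were low and the other arrays overlapped. The log2 change was -0.05 (95% interval -0.57 to 0.47, limma adjusted p = 1.00), with a difference of 0.53 in pair 1 and -0.74 in pair 2. For *Rela* (probe A_64_P046388, chromosome 1 from 208272360 to 208272419), non-irradiated arrays read 7.06, 7.72, 7.78 and 8.10 and irradiated arrays 7.38, 7.12, 7.84 and 8.31. The same 2 arrays were lowest, and replicate 4 was highest in both groups. The log2 change of *Rela* was -0.0020 (95% interval -0.44 to 0.44, limma adjusted p = 1.00).
A second probe of *Nfkb1*, A_44_P1157367, spans 6247 bases of rn4 for its 60 bases of sequence and so crosses at least 1 intron. It was far dimmer, and 1 of the 4 non-irradiated arrays was not well above background. Its differences were -0.063, -0.63, 0.47 and 0.39 in pairs 1 to 4. In pair 1 it therefore did not follow the brighter probe, and its log2 change was 0.04 (95% interval -0.46 to 0.54).

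*Nfkb2*, the precursor subunit of the slower branch, varied little. Its log2 signal (probe A_42_P658264, chromosome 1 of rn4 from 251526647 to 251526839) was 7.46, 7.85, 7.52 and 7.81 in non-irradiated and 7.79, 7.49, 7.71 and 7.75 in irradiated replicates 1 to 4. All 8 arrays lay within 0.39 of each other, with the lowest values again in non-irradiated replicate 1 and irradiated replicate 2. The log2 change was 0.02 (95% interval -0.34 to 0.38, limma adjusted p = 1.00). *Rel* encodes a subunit best known from lymphoid cells, and its probe (A_44_P248193, chromosome 14 from 104645730 to 104645789) was well above background on all 8 arrays. It read 5.13, 5.51, 5.23 and 5.56 in non-irradiated cells and 5.60, 5.90, 5.14 and 5.48 in irradiated cells. Here pairs 1 and 2 differed in the same direction, by 0.48 and 0.39, and pairs 3 and 4 by -0.092 and -0.088. The log2 change of *Rel* was 0.17 (95% interval -0.19 to 0.54, limma adjusted p = 1.00), and without replicates 1 and 2 it was -0.09.

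*Relb* encodes the partner of the processed *Nfkb2* product, and its bright probes, 2 of 4, ran opposite to the bright *Nfkb1* probe and to *Rela*. The brightest probe (A_44_P1091131, chromosome 1 of rn4 from 78915593 to 78915652) read 10.44, 9.76, 9.93 and 9.63 on non-irradiated arrays and 10.03, 10.70, 10.05 and 9.69 on irradiated arrays. Non-irradiated replicate 1 and irradiated replicate 2 were the highest of the 8. The pairs differed by -0.42, 0.94, 0.12 and 0.06, and the log2 change was 0.18 (95% interval -0.37 to 0.73, limma adjusted p = 1.00). A second bright probe, A_44_P1157925 (from 78920771 to 78920830), differed by -0.72, 0.69, -0.023 and 0.07 and had a log2 change of 0.0031. Across the 8 arrays the log2 signals of these bright probes followed each other, with Pearson r = 0.85.
A further pair of *Relb* probes was dim, with log2 signals between 3.41 and 4.97. The first 30 of the 60 bases of the 4 probes are given because the dim and the bright probes did not read alike.
A_44_P1091131: caatcctgaagaagggggtaggttgtttgt
A_44_P1157925: tcagaggacaacgtatgggactcggttctc
A_44_P1157930: ccaaagacagtgtcttgccatgtaatcaga
A_44_P1157921: tccacatggaattgaaagcaagcgacggaa
Probe A_44_P1157930 (from 78920844 to 78921231, a span of 388 bases) was the 1 member probe with an unadjusted p below 0.05. It read 4.57, 3.41, 4.45 and 4.46 on non-irradiated and 4.57, 4.31, 4.97 and 4.81 on irradiated arrays. Irradiated values were higher in 4 of 4 pairs, but by 0.0047 in pair 1 and by 0.90 in pair 2, in which the non-irradiated array was not well above background. The log2 change was 0.44 (95% interval 0.03 to 0.85, unadjusted limma p = 0.039, adjusted p = 1.00), and turning the signs of the pairs (exact test, two-sided) gave p = 0.125, below which 4 pairs cannot go. With normexp background correction the change was 0.09, and the unadjusted limma p was 0.21. No member probe had an unadjusted p below 0.05 in 12 of the 15 alternatives. Probe A_44_P1157930 was not itself tested in those that required all 8 arrays well above background or averaged the probes of a gene. The probe A_44_P1157921 had a log2 change of 0.33 (95% interval -0.13 to 0.79), most of it in pair 4 (0.97). Both dim probes entered the test only through the irradiated arrays, since 1 non-irradiated array of each was not well above background, which favors higher irradiated values. The correlation of dim with bright *Relb* probes was between -0.04 and 0.23.

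**Figure D2:**
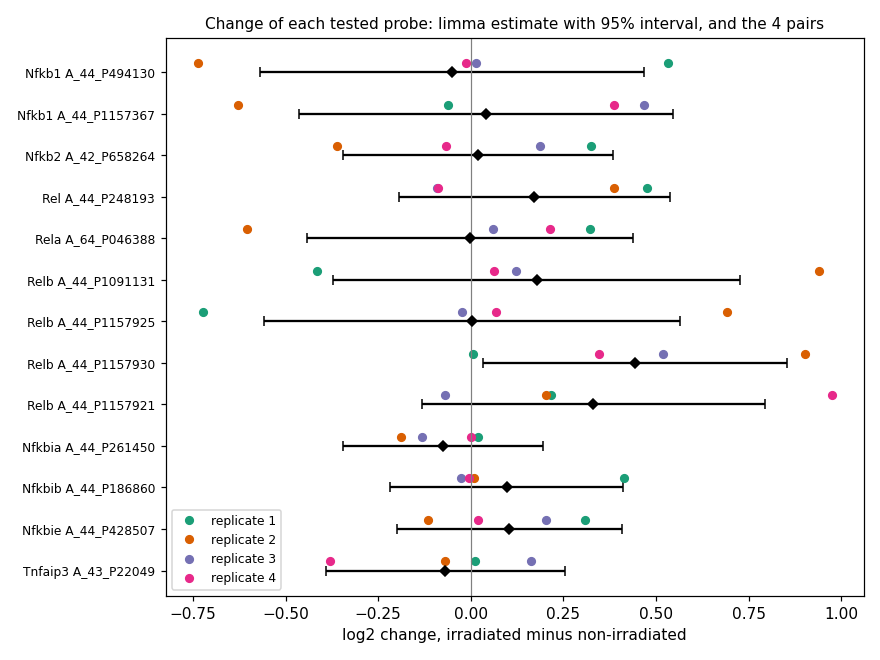
Log2 change (irradiated minus non-irradiated) of the 13 tested probes of the members; diamonds and bars are the limma estimates and 95% intervals, colored points the differences of the 4 pairs. The interval of 1 probe, the dim *Relb* probe A_44_P1157930, does not include 0, and pairs 1 and 2 lie on opposite sides of 0 for the bright *Nfkb1* probe, *Rela* and the bright *Relb* probes.

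*Nfkbia*, the classical feedback inhibitor that is resynthesized within hours of activation, was the steadiest member. Its log2 signal (probe A_44_P261450, chromosome 6 of rn4 from 75730438 to 75730497) was 9.73, 9.79, 9.83 and 9.55 in non-irradiated replicates 1 to 4 and 9.75, 9.60, 9.70 and 9.55 in irradiated replicates. The 8 arrays lay within 0.28 of each other, against a median range of 0.88 over all probes tested. The pairs differed by 0.02, -0.19, -0.13 and 0.00013, so that the groups overlapped. The log2 change was -0.075 (95% interval -0.35 to 0.20, limma adjusted p = 1.00), and it lay between -0.11 and -0.038 under every alternative run.
*Nfkbie*, another induced IκB gene, read 6.37, 6.72, 6.69 and 6.88 in non-irradiated and 6.68, 6.60, 6.90 and 6.90 in irradiated cells (probe A_44_P428507, chromosome 9 from 11044255 to 11044314). It was higher in 3 of 4 pairs, with a log2 change of 0.10 (95% interval -0.20 to 0.41, limma adjusted p = 1.00). Non-irradiated replicate 1 was the lowest of the 8 arrays, as in *Nfkb1* and *Rela*.
*Nfkbib* encodes an IκB protein that is less readily induced. Its probe (A_44_P186860, chromosome 1 from 83866200 to 83866259) read 7.70, 8.30, 8.69 and 8.55 on non-irradiated and 8.11, 8.31, 8.66 and 8.54 on irradiated arrays. Pair 1 differed by 0.41 and no other pair by more than 0.03 in either direction. The log2 change was 0.10 (95% interval -0.22 to 0.41, limma adjusted p = 1.00), and it was -0.0081 without replicate 1, the replicate that carried it.
*Tnfaip3* encodes a ubiquitin-editing enzyme that shuts off signaling above the kinase. The probe A_43_P22049, which the array leaves unmapped on rn4, read 5.76, 5.63, 5.54 and 5.59 in non-irradiated and 5.78, 5.56, 5.71 and 5.21 in irradiated cells. Irradiated replicate 4 was lowest, and the log2 change was -0.068 (95% interval -0.39 to 0.25, limma adjusted p = 1.00). Another probe, A_44_P762190, was well above background on 0 non-irradiated arrays and 1 irradiated array and was not tested.
*Nfkbiz* encodes a nuclear IκB protein that is switched on early in inflammation. Its 1 probe (A_44_P359684, chromosome 11 from 45810786 to 45810845) was well above background on 2 of 4 arrays in each group and was not tested. The log2 signals were 4.19, 2.68, 4.03 and 4.17 in non-irradiated and 4.20, 1.57, 3.31 and 4.10 in irradiated cells. Replicate 2 was lowest in both groups, and signals this close to the background have little order.

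Subunits and inhibitors were compared by their medians within each replicate number, with 1 probe per gene and no test. The median log2 change was 0.02 over 5 subunits and 0.01 over 4 inhibitors, beside 0.0016 over all probes tested. For the 3 tested inhibitors known to be induced, *Nfkbia*, *Nfkbie* and *Tnfaip3*, it was -0.068. The subunit median was 0.32, -0.36, 0.06 and -0.014 in pairs 1 to 4, and the inhibitor median 0.16, -0.093, 0.07 and -0.0025. The inhibitor median minus the subunit median was -0.16, 0.27, 0.0089 and 0.01 in the 4 pairs, so that pairs 1 and 2 had opposite signs and pairs 3 and 4 were near 0. Its mean of 0.03 ± 0.18 (SD, n = 4) was smaller than the spread between pairs. Members with and without a κB match in the promoter did not separate. The 6 tested members with a match had changes from -0.075 to 0.17 (median -0.016), and *Rela* and *Nfkbib*, without one, changes of -0.0020 and 0.10.
Without replicates 1 and 2, the 9 genes had log2 changes between -0.11 (*Tnfaip3*) and 0.14 (*Rela*). There, 0 of 13 probes had a limma adjusted p below 0.1. An unadjusted p below 0.05 was found for 2 of 13, and for 1657 of all 26399 probes in the same setting. These 2 were the dim probes A_44_P1157367 of *Nfkb1* (0.43) and A_44_P1157930 of *Relb* (0.43). Both entered the test only through the irradiated arrays.

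With the brightest probe of each gene, several members varied across the arrays in a shared order. *Nfkb1* and *Rela* followed each other across the 8 arrays (Pearson r = 0.95), and *Nfkbie* followed both (r = 0.89 with each). *Relb* ran against *Nfkb1* (r = -0.94), *Rela* (r = -0.88) and *Nfkb2* (r = -0.79). *Nfkbia* stood outside this order, with r between -0.44 and 0.07 to the 5 subunits. So did the subunit *Rel*, with r between -0.14 and 0.18 to the other subunits. These correlations describe 8 arrays that share 4 replicate numbers and 1 slide, and they carry no test.
Opposite signs in pairs 1 and 2 were not particular to NF-κB. They were found in 7 of 9 members (77.8%) and in 73.9% of all probes. The members were higher in pair 1 and lower in pair 2 in 6 of 9 (66.7%), a pattern shown by 30.3% of all probes, and *Relb* alone was lower in pair 1 and higher in pair 2, as were 43.6% of all probes. The mean log2 signal of 80 cytosolic ribosomal protein genes was 17.07 on non-irradiated replicate 1 and 17.04 on irradiated replicate 2, and between 17.14 and 17.28 on the other arrays. The mean of the 4 endothelial markers was 7.59 and 7.27 on these 2 arrays, 7.44 on irradiated replicate 1 and between 6.23 and 6.67 on the rest. The mean of the 3 cartilage markers was 9.03 and 9.04 in replicate 1 and between 11.16 and 12.14 in the other replicates. The part of these differences in the members' values was not tested.

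**Figure D3:**
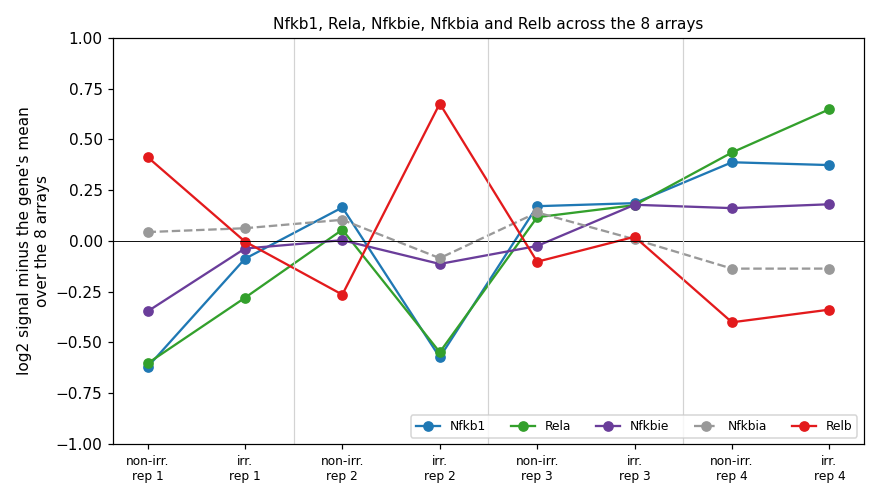
Log2 signal of 5 members on the 8 arrays, each minus the mean of that gene, with the arrays ordered by replicate number (non-irradiated, then irradiated). *Nfkb1* and *Rela* are lowest and *Relb* highest on non-irradiated replicate 1 and irradiated replicate 2, while *Nfkbia* (dashed) stays close to 0.

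The genes around the members were read from lists by role, with 1 probe per gene. Among ligands, which start the response, *Tnf*, *Il1a* and *Il1b* had no tested probe, and the probes of *Il1a* and *Il1b* were well above background on 0 of 8 arrays. Only *Lta* and *Tnfsf12* of 9 ligands could be tested, with log2 changes of -0.04 and 0.06. Receptors and adaptors were measured for 20 of 21 genes, and 0 had an unadjusted p below 0.05 (11 higher and 9 lower, median log2 change 0.02). On the deposited log2 values 1 had such a limma p. For *Irak1*, outlying spots left values on both arrays in pair 4 alone, so its change rests on that pair. In this list *Tlr2*, a receptor for bacterial lipoproteins, had the smallest p and a log2 change of 0.26 (standard error 0.15). *Traf2*, an adaptor of tumor necrosis factor receptors, had the largest change, -0.33 (standard error 0.21), of which pair 2 made up the most with -1.05.
Of 10 tested genes in the kinase list, 9 had a positive log2 change, as did 13335 of all 26399 probes. The list also holds *Ikbkg*, *Tab1*, *Tab2* and *Tab3*, which encode regulatory or adaptor partners of the kinases and not kinases. The median over the list was 0.09, where the all-probe median was 0.0016. The list median was -0.15, 0.55, -0.055 and 0.06 in pairs 1 to 4, so pair 2 carried it, and it was -0.053 without replicate 2 and 0.0037 without replicates 1 and 2. The kinase of the slower branch, *Map3k14*, had the smallest p of its list. Its log2 signal was 4.42, 3.68, 4.49 and 4.61 in non-irradiated and 4.76, 4.63, 4.95 and 5.08 in irradiated replicates 1 to 4. The groups did not overlap, which was so for 0.553% of all probes, but the gap between the closest arrays was narrow and non-irradiated replicate 2 lay far below the others. The log2 change was 0.56 (standard error 0.14, unadjusted limma p = 0.0078, limma adjusted p = 1.00), and the exact sign test of the pairs, all 4 higher, gave its lowest possible two-sided p of 0.125. This probe too entered the test only through the irradiated arrays, since 3 of 4 non-irradiated and 4 of 4 irradiated arrays were well above background, which favors higher irradiated values and groups that do not overlap. The probe was not tested when all 8 arrays had to be above background. With normexp background correction or on the deposited log2 values, 0 genes of the kinase list had an unadjusted limma p below 0.05. In each of the other alternatives 1 gene of the list did.
Among 13 tested inhibitors and regulators outside the members, 0 had an unadjusted p below 0.05 (median log2 change 0.01). *Nfkbid*, a nuclear IκB gene, had the smallest p and the largest change there, 0.18 (standard error 0.11), and was higher in 4 of 4 pairs.
Known target genes had a median log2 change of 0.05 over 22 tested of 30, with 4 higher (1.47% of all probes were) and 0 lower (1.09%) at an unadjusted p below 0.05 and 0 at a limma adjusted p below 0.1. These 4 were *Cxcl3*, *Cxcl1*, *Mmp3* and *Ccl5*. Of the 22 targets, 5 were higher in 4 of 4 pairs, against 3.82% of all probes, and 0 were lower, against 3.64%. The study picked *Cxcl3*, *Cxcl1* and *Mmp3* from these same arrays, so their array values are not independent evidence of a direction. It also measured them by quantitative PCR. There it reported significant increases of *Cxcl3* and *Mmp3* 6 h after irradiation and no significant difference of *Cxcl1*. The neutrophil chemokine gene *Cxcl3* had the smallest p and the largest change, with pair differences of 1.75, 1.11, 1.94 and 1.104. Its non-irradiated signals lay near the background, between 3.98 and 4.55, and its probe also entered the test only through the irradiated arrays, with 3 of 4 non-irradiated arrays well above background, so it was not tested when all 8 arrays had to be, and 3 targets then had an unadjusted p below 0.05. *Cxcl1*, well above background on all 8 arrays, had a log2 change of 0.77 (standard error 0.12). Its pair differences were 0.70, 0.72, 0.65 and 1.005. *Mmp3*, also well above background on all 8, changed by 0.58 (standard error 0.18), with pair differences of 1.18, 0.48, 0.38 and 0.28. The lymphocyte chemokine gene *Ccl5*, well above background on all 8 arrays, had a log2 change of 0.36 (standard error 0.11) with pair differences of 0.20, 0.37, 0.45 and 0.41. *Il6*, *Cxcl2* and *Csf2* were well above background on 0 of 8 arrays.

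**Figure D4:**
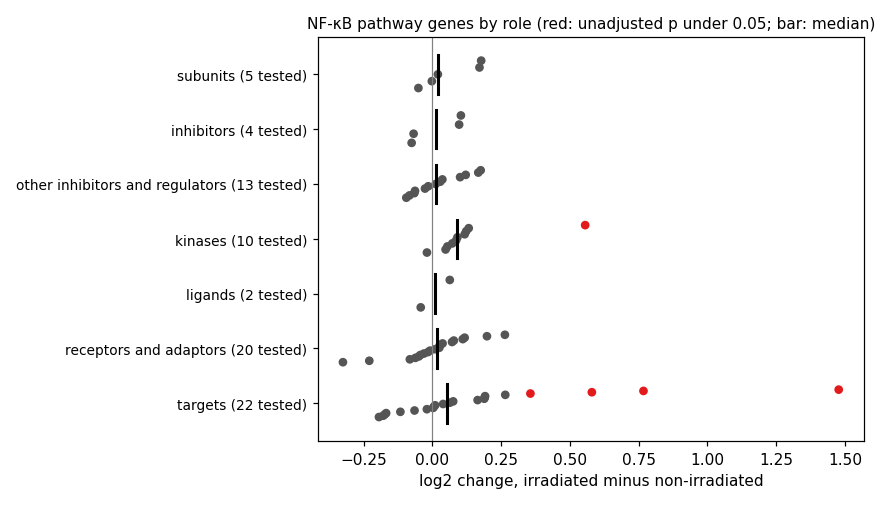
Log2 change (irradiated minus non-irradiated) of each tested gene of the NF-κB pathway, 1 point per gene, by role; black bars are list medians and red points have an unadjusted limma p below 0.05. The medians lie between 0.01 and 0.09, and the red points are *Map3k14* in the kinase list and 4 targets.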

How the data were processed

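Spot intensity was deposited as Agilent Feature Extraction 11.0.1.1 wrote it (per the labels), after that software had removed background and spatial trends. A table of quantile-normalized log2 values, deposited by the authors with 24029 rows, served as an alternative. The processed signals of 58717 rat spots were put on the log2 scale and quantile normalized, with outlying spots left out (0 among the members), and spots of a probe were averaged. A probe was tested if over 50% of its spots were well above background on each of the 4 arrays of 1 group or both. The test was limma 3.58.1 (lmFit, eBayes; R 4.3.3), two-sided, with Benjamini-Hochberg adjustment over all probes and the limit at 0.1. Gene names and rn4 positions are those of the array design, and exon annotation was not used here.

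The replicate number was a block, since the study's own test values follow from differences within replicate numbers and the scanner file names give both arrays of a number the same rat number. Deviations from group means correlated within numbers 1 to 4 at 0.61, 0.055, 0.57 and 0.75.

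Members and gene lists were chosen with earlier results of these data known. Named genes were the members, the gene with the smallest p and that with the largest change in each list, and the 5 genes most like *Nfkbia* and *Nfkb2*. *Mmp3*, *Cxcl1*, *Ccl5* and genes not well above background were named after their values were seen. The alternatives comprised 75th-percentile scaling, normexp (offset 50), the deposited values, other filters on dim probes, outlying spots kept, no block, a random block, a robust variance trend, averaged probes, each replicate left out, and, chosen after seeing the data, replicates 1 and 2 left out.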

Additional observations from a re-analysis of the deposited data

Results flagged for a closer look

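Of 30 groups of 4 arrays over the 15 member probes, 3 (10%) held an array set apart from its group, with a gap to its neighbor too large a share of the group's range for Dixon's test at the 95% level. Chance gives about 5%. The dim *Relb* probe A_44_P1157930 was at 3.41 on non-irradiated replicate 2, against 4.45 to 4.57 on the other non-irradiated arrays. The dim *Relb* probe A_44_P1157921 was at 4.68 on irradiated replicate 4, against 4.14 to 4.18. The *Nfkbiz* probe was at 2.68 on non-irradiated replicate 2, against 4.03 to 4.19. All 3 probes were near the background, and no bright probe of a member had such an array.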

How the results depend on the processing

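Under all 15 alternatives 0 member probes and 0 probes overall had an adjusted p below 0.1, and the smallest adjusted p of a member was 0.79. Of 179 values of member probes, 21 changed sign, all for changes that had not passed the test, and the cause was not tested. *Relb* (A_44_P1157925) was -0.014 scaled to the 75th percentile, -0.0033 with normexp, -0.023 on the deposited values and -0.0049 with outlying spots kept, *Nfkb2* was -0.0032 with normexp, and the dim *Nfkb1* probe -0.0047 on the deposited values. With 1 replicate left out, *Nfkb1* lay between -0.25 and 0.18 (dim probe -0.10 to 0.26), *Nfkb2* between -0.081 and 0.15, *Rela* between -0.11 and 0.20, *Relb* between -0.077 and 0.38 (A_44_P1157925 between -0.23 and 0.25), *Nfkbib* between -0.0081 and 0.14 and *Tnfaip3* between -0.15 and 0.035. *Nfkb1* and *Rela* turned positive without replicate 2, and *Relb* negative. Without replicates 1 and 2 together, *Nfkb1* was 0.00055, *Rel* -0.090, *Rela* 0.14 and *Nfkbib* -0.016. At an unadjusted p below 0.05 there were 676 probes as reported, but 250 after normexp, 292 on the deposited values, 1663 without a filter, 449 with all 8 arrays above background, 359 with a robust variance trend, 251 with no replicate block, 1657 without replicates 1 and 2 together and between 389 and 1404 with 1 replicate left out. Of its calls, scaling to the 75th percentile gave 426 higher and 161 lower, against 387 and 289. The 1 member probe with an unadjusted p below 0.05 (*Relb*, A_44_P1157930) fell to 0 with no replicate block and in 11 further alternatives (75th-percentile scaling, normexp, no filter, all 8 arrays, deposited values, random block, robust trend, averaged probes, without replicate 2, 3 or 4). With all 8 arrays required or with averaged probes this probe was not itself tested, so its loss there was fixed in advance. The count remained 1 with outlying spots kept and without replicate 1, and was 2 without replicates 1 and 2. Signal over background limits *Nfkbiz*, the second *Tnfaip3* probe and the dim *Relb* and *Nfkb1* probes.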

Other observations

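The genes whose log2 signal was most like a member across the 8 arrays were sought among 20496 other genes, as a description without a test, in arrays that share 4 replicate numbers. For *Nfkbia* these were *Dpy19l1* (Pearson r = 0.95), the transcript ENSRNOT00000073551 (0.95), *Ntrk2* (0.94), *Nenf* (0.94) and *Gpld1* (0.94). The lowest of the 8 arrays was one of replicate 4 for each of these 5 genes, as for *Nfkbia*, and their log2 changes lay between -0.15 and -0.042. For *Nfkb2* they were *Krtap4-3* (0.97), FM100783 (0.97), *Lamtor3* (0.96), *Gdpgp1* (0.94) and LOC103691862 (0.94), with log2 changes between -0.0028 and 0.05. On non-irradiated replicate 1, *Krtap4-3* (3.465) and FM100783 (3.561) lay under the lowest signal well above background (3.563). Both are therefore dim and passed the filter only through the irradiated arrays. *Lamtor3* read 7.89 on non-irradiated replicate 1 and 7.88 on irradiated replicate 2, its lowest values, which were also the arrays on which *Nfkb2* was lowest.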
